A study of Mus musculus domesticus with 12 samples.

Results

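Macrophages and monocytes are recognised by a small set of transcripts, and 9 of them were followed here through cultured erythroid precursors of the mouse: Spi1, Irf8, Csf1r, Fcgr3, Ly86, Lyz2, Cd68, Ctss and Adgre1. They were chosen by name, as known genes of this lineage, with earlier results of these data known, and they are 9 of the 55385 genes in the deposited tables. Spi1 encodes PU.1, the ETS-family transcription factor that directs progenitors towards macrophages, granulocytes and B cells, and that has to fall as red cells differentiate, since PU.1 and the erythroid factor GATA1 oppose each other. Irf8 is a partner of PU.1 that favours the monocyte and dendritic cell fate, and the other 7 genes are products of the myeloid programme: surface receptors and proteins of the lysosome. In fetal liver, mature macrophages sit at the centre of erythroblastic islands, where erythroblasts attach, while monocyte and granulocyte progenitors mature beside them.

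The study compared erythroid precursors in which either catalytic subunit of the RNA exosome, a complex that trims and degrades RNA, had been knocked down. Fetal liver cells of C57BL/6J embryos at E14.5 were depleted of lineage-positive cells, infected with a retrovirus encoding an shRNA and GFP, and grown for 2 days in erythroid expansion medium. GFP-positive cells without Ter119 and with intermediate or positive CD71 were then sorted, so that each library is a bulk sample of erythroid precursors and proerythroblasts. The 3 groups, of 4 libraries each, differed in the shRNA: shDis3 targeted Dis3, shExosc10 targeted Exosc10, and shLuc targeted firefly luciferase and served as the control, so all groups share the infection, the sort and the culture. Whether the 4 libraries of a group stem from separate cultures or embryos is not labelled, so each p-value reflects just the variation among these libraries, which may be technical. In bulk samples, fewer cells of a type and less RNA per cell cannot be told apart.

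Library totals lay between 14936200 and 32397204 counts. Normalised CPM (counts scaled to a common library size with TMM factors) of Dis3 were 24.7 to 52.4 in shDis3, 117 to 196 in shExosc10 and 113 to 161 in shLuc. Those of Exosc10 were 80.1 to 141 in shDis3, 18.9 to 30.8 in shExosc10 and 85.4 to 113 in shLuc, so every shDis3 and shExosc10 library was low in its target. All 20 genes of an erythroid marker list passed the filter on low counts, and their summed level was 1436 to 3322 TPM (a level per transcript length) in shDis3, 1750 to 3578 TPM in shExosc10 and 1080 to 3568 TPM in shLuc. Across all genes, the best match of 8 of the 12 libraries, by correlation of log2 CPM, lay outside the own group (3 shDis3, 3 shExosc10 and 2 shLuc libraries). Of these, shDis3 3 and shLuc 4 matched each other at r = 0.986 (best match inside the own group 0.972 for shDis3 3 and 0.946 for shLuc 4), and shDis3 4 and shExosc10 1 matched each other at 0.981 (0.968 for shDis3 4 and 0.942 for shExosc10 1). Values are given with all 12 libraries, and again without shDis3 4, shExosc10 1 and shLuc 4 or without these 3 and shDis3 3.

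All 9 genes were measured and all 9 passed the filter on low counts, but at very different levels. Lyz2 had the highest level, with a mean of 59.1 TPM over the 12 libraries, above 91.8% of the genes tested. Fcgr3 followed with 33.6 TPM and Spi1 with 26.8 TPM, then Csf1r with 5.12, Cd68 with 2.70, Irf8 with 2.12 and Ctss with 1.13 TPM. Ly86 had 0.824 TPM and Adgre1, the gene of the macrophage antigen F4/80, 0.640 TPM. The step from Spi1 to Csf1r held in all 12 libraries, whereas Fcgr3 exceeded Spi1 in 5 of 12, Cd68 exceeded Irf8 in 8 and Ctss exceeded Ly86 in 9, so the order within those pairs is not fixed. TPM depends on the effective length that RSEM assigned to each gene from its mixture of isoforms. For Adgre1 that length was between 676 and 3003 bases across libraries (a ratio of 4.44), for Csf1r between 910 and 3158 bases (3.47) and for Spi1 between 1207 and 1676 bases (1.39), while for Lyz2, Fcgr3, Cd68 and Ctss it varied by a ratio of at most 1.04. Differences between groups in single genes are therefore given from counts, unless TPM is named. Sums over gene lists are in TPM, whose scale against CPM also differed between libraries. Lyz2, with its steady length, had 83.9 CPM and 38.6 TPM in shLuc 1, but 77.3 CPM and 83.6 TPM in shLuc 4.

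**Figure D1:**
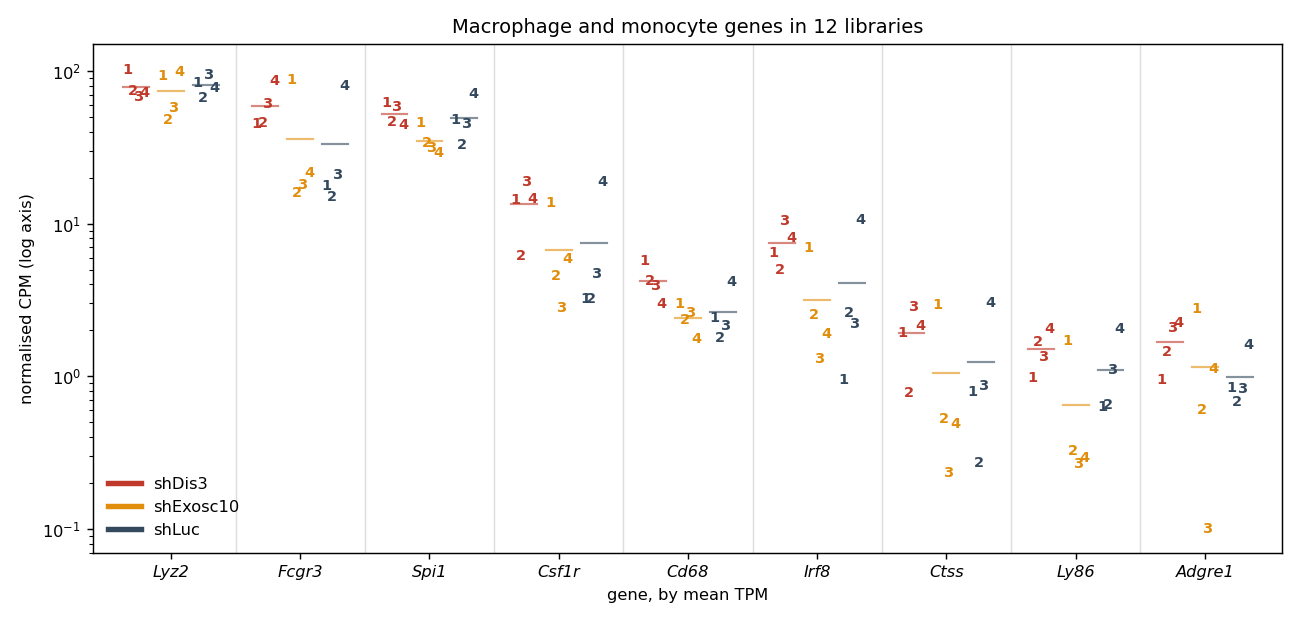
Normalised CPM (vertical, log axis) of the 9 genes, ordered by mean TPM, in shDis3, shExosc10 and shLuc; each digit is 1 library, named by its replicate number, and each line is the mean of 4 libraries. shExosc10 1 and shLuc 4 stand with or above the shDis3 libraries for Fcgr3, Csf1r, Irf8 and Ctss, while Lyz2 shows no such split.

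Among the transcription factors, Spi1 (ENSMUSG00000002111.8, chromosome 2, 91082390 to 91115756, plus strand, build GRCm38) had 61.8, 46.0, 58.0 and 44.6 CPM in shDis3 libraries 1 to 4, 45.7, 33.7, 31.1 and 28.9 CPM in shExosc10 and 47.4, 32.8, 45.2 and 70.6 CPM in shLuc. The means were 52.6 ± 8.58, 34.9 ± 7.497 and 49.0 ± 15.8 CPM (SD, n = 4 each). The highest library was shLuc 4, shExosc10 4 was the lowest, and each pair of groups overlapped. The log2 fold change was 0.10 (SE 0.23) in shDis3 against shLuc, -0.49 (SE 0.23) in shExosc10 against shLuc and 0.59 (SE 0.23) in shDis3 against shExosc10. The last had an unadjusted p of 0.0226 and an adjusted p of 0.769 (edgeR's quasi-likelihood test, Benjamini-Hochberg over 17650 genes), so it did not pass the threshold of 0.05. On TPM, whose lengths varied, limma on log2(TPM + 1) gave 0.56 in shDis3 against shLuc (adjusted p = 1.0), -0.13 in shExosc10 against shLuc and 0.69 in shDis3 against shExosc10, while the median of all genes was 0.11, 0.03 and 0.07.

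Irf8 (ENSMUSG00000041515.10, chromosome 8, 120736358 to 120756694, plus strand), the interferon regulatory factor of the monocyte fate, had 6.39, 4.96, 10.4 and 7.995 CPM in shDis3, 6.90, 2.51, 1.301 and 1.91 CPM in shExosc10 and 0.950, 2.59, 2.19 and 10.6 CPM in shLuc. Every shDis3 library was above 3 of the 4 libraries of each other group, and shExosc10 1 and shLuc 4 lay within or above the shDis3 range. The log2 fold change was 0.86 (SE 0.63) in shDis3 against shLuc, -0.38 (SE 0.64) in shExosc10 against shLuc and 1.24 (SE 0.64) in shDis3 against shExosc10, with adjusted p-values of 1.0, 1.0 and 0.824.

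Of the receptors, Csf1r, the receptor for the macrophage growth factors CSF1 and IL-34 (ENSMUSG00000024621.16, chromosome 18, 61100598 to 61132149, plus strand), had 14.3, 6.16, 18.8 and 14.6 CPM in shDis3, 13.6, 4.57, 2.80 and 5.87 CPM in shExosc10 and 3.22, 3.20, 4.70 and 18.7 CPM in shLuc. The pattern was that of Irf8: the lowest shDis3 library was above 3 libraries of each other group, and the exceptions were again shExosc10 1 and shLuc 4. The log2 fold change was 0.85 (SE 0.59) in shDis3 against shLuc, -0.16 (SE 0.59) in shExosc10 against shLuc and 1.01 (SE 0.59) in shDis3 against shExosc10, with adjusted p-values of 1.0, 1.0 and 0.853. Csf1r shares 873 bases with Hmgxb3 on the opposite strand, which averaged 1540 counts per library against 251 for Csf1r, and since the strand setting of the counting is not given in the sources used here its counts are uncertain.

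Fcgr3 encodes Fc gamma receptor III, a low-affinity receptor for IgG on macrophages, monocytes, granulocytes, mast cells and natural killer cells. This gene (ENSMUSG00000059498.13, chromosome 1, 171051174 to 171064935, minus strand) had 44.9, 45.3, 60.3 and 85.8 CPM in shDis3, 87.4, 15.8, 18.01 and 21.4 CPM in shExosc10 and 17.7, 15.02, 20.9 and 79.0 CPM in shLuc. It separated libraries more widely than any other of the 3 most abundant genes: 6 of the 8 shExosc10 and shLuc libraries had at most 21.4 CPM, while shExosc10 1, shLuc 4 and the 4 shDis3 libraries had at least 44.9. The log2 fold change was 0.83 (SE 0.59) in shDis3 against shLuc, 0.10 (SE 0.59) in shExosc10 against shLuc and 0.73 (SE 0.59) in shDis3 against shExosc10, with adjusted p-values of 1.0, 1.0 and 0.944. Ly86 encodes MD-1, the partner of the Toll-like receptor homologue RP105 (ENSMUSG00000021423.6, chromosome 13, 37345208 to 37419036, plus strand). It was near the lower limit of the assay, with 6 to 61 counts per library. It had 0.978, 1.67, 1.33 and 2.04 CPM in shDis3, 1.71, 0.324, 0.267 and 0.294 CPM in shExosc10 and 0.634, 0.647, 1.10 and 2.05 CPM in shLuc. Its difference was 0.44 (SE 0.69) in shDis3 against shLuc, -0.77 (SE 0.70) in shExosc10 against shLuc and 1.21 (SE 0.70) in shDis3 against shExosc10 on the log2 scale.

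Lyz2 encodes the lysozyme of macrophages and granulocytes (ENSMUSG00000069516.8, chromosome 10, 117277331 to 117282321, minus strand) and had the smallest spread of the 9. It had 102, 73.4, 67.0 and 71.6 CPM in shDis3, 92.4, 47.7, 56.9 and 98.5 CPM in shExosc10 and 83.9, 66.4, 93.4 and 77.3 CPM in shLuc. The values of shExosc10 1 and shLuc 4 lay inside the spread of the rest, and the log2 fold changes were -0.03, -0.12 and 0.09 (SE 0.24 each) in shDis3 against shLuc, shExosc10 against shLuc and shDis3 against shExosc10. The SD of its log2 CPM over the 12 libraries was 0.33, against 0.41 for Spi1, 0.52 for Cd68 and 0.98 to 1.21 for the other 6. Lyz2 has a close paralogue, Lyz1, which averaged 0.112 TPM, and Fcgr3 has Fcgr2b and Fcgr4, so shared reads could be divided in both. The deposited counts, which need not be whole, were whole for Lyz2 in all 12 libraries. Those of Fcgr3 were whole in all but shDis3 4 (2317.95) and shExosc10 1 (2306.92), so little division shows in them.

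Cd68, the gene of the lysosomal membrane glycoprotein macrosialin (ENSMUSG00000018774.13, chromosome 11, 69664213 to 69666153, minus strand), had 5.72, 4.24, 3.90 and 2.96 CPM in shDis3, 2.99, 2.35, 2.60 and 1.76 CPM in shExosc10 and 2.43, 1.77, 2.14 and 4.16 CPM in shLuc. Of the shExosc10 libraries only shExosc10 1 reached the shDis3 range, and of the shLuc libraries only shLuc 4. The log2 fold change was 0.68 (SE 0.34) in shDis3 against shLuc, -0.11 (SE 0.34) in shExosc10 against shLuc and 0.79 (SE 0.34) in shDis3 against shExosc10, where the last had an unadjusted p of 0.0371 and an adjusted p of 0.798. Ctss, the lysosomal cysteine protease cathepsin S (ENSMUSG00000038642.10, chromosome 3, 95526786 to 95556403, plus strand), had 1.92, 0.777, 2.83 and 2.15 CPM in shDis3, 2.96, 0.526, 0.234 and 0.489 CPM in shExosc10 and 0.792, 0.273, 0.867 and 3.02 CPM in shLuc. Its highest values were in shLuc 4 and shExosc10 1, above every shDis3 library. Ctss differed by 0.63 (SE 0.82) on the log2 scale in shDis3 against shLuc, -0.24 (SE 0.82) in shExosc10 against shLuc and 0.87 (SE 0.82) in shDis3 against shExosc10. It rested on 7 to 98 counts per library and overlaps the pseudogene Hmgb1-ps5 on the same strand, which averaged 50.9 counts against 38.3 for Ctss.

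Adgre1, which marks tissue macrophages (ENSMUSG00000004730.15, chromosome 17, 57358691 to 57483527, plus strand), had 0.940, 1.43, 2.08 and 2.22 CPM in shDis3, 2.77, 0.607, 0.1001 and 1.13 CPM in shExosc10 and 0.845, 0.681, 0.821 and 1.61 CPM in shLuc. The lowest of these was 3 counts in shExosc10 3 and the highest 73 counts in shExosc10 1, both of the same group. The log2 fold change was 0.75 (SE 0.73) in shDis3 against shLuc, 0.21 (SE 0.73) in shExosc10 against shLuc and 0.54 (SE 0.73) in shDis3 against shExosc10.

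Considered together, 8 of the 9 genes had a positive log2 fold change in shDis3 against shLuc, with a median of 0.68, where all 17650 genes tested had a median of 0.02 and 52.6% were positive. No member was called by edgeR (0 of 9), against a background of 0% (0 of 17650 genes). An unadjusted p under 0.05 was reached by 0 of 9, against 719 of all genes. In shExosc10 against shLuc, 2 of 9 were positive with a median of -0.16, 0 of 9 were called against a background of 0.00567% (1 gene), and 0 of 9 had an unadjusted p under 0.05. In shDis3 against shExosc10, 9 of 9 were positive with a median of 0.79, 0 of 9 were called against a background of 0.0113% (2 genes), and 2 of 9, Spi1 and Cd68, had an unadjusted p under 0.05 against 5.98% of all genes. DESeq2 also called 0 of 9 in each comparison, against 0.0679%, 0.0145% and 0.119% of 41267 genes in shDis3 against shLuc, shExosc10 against shLuc and shDis3 against shExosc10. Limma called 0 of 9 and 0 of all genes in each. With clusters of like libraries as a factor, 1 of 9 was positive in shDis3 against shLuc (median -0.19) and 3 of 9 in shDis3 against shExosc10 (median -0.04). Without shLuc 4 the median was 1.09 in shDis3 against shLuc and 0.56 in shExosc10 against shLuc, where 6 of 9 were then positive. The 3 comparisons share libraries in pairs, so their values are not independent of each other. No member had all 4 libraries of one group above all 4 of the other; of all genes, 1.7% did in shDis3 against shLuc, 2.48% in shExosc10 against shLuc and 3.71% in shDis3 against shExosc10.

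**Figure D2:**
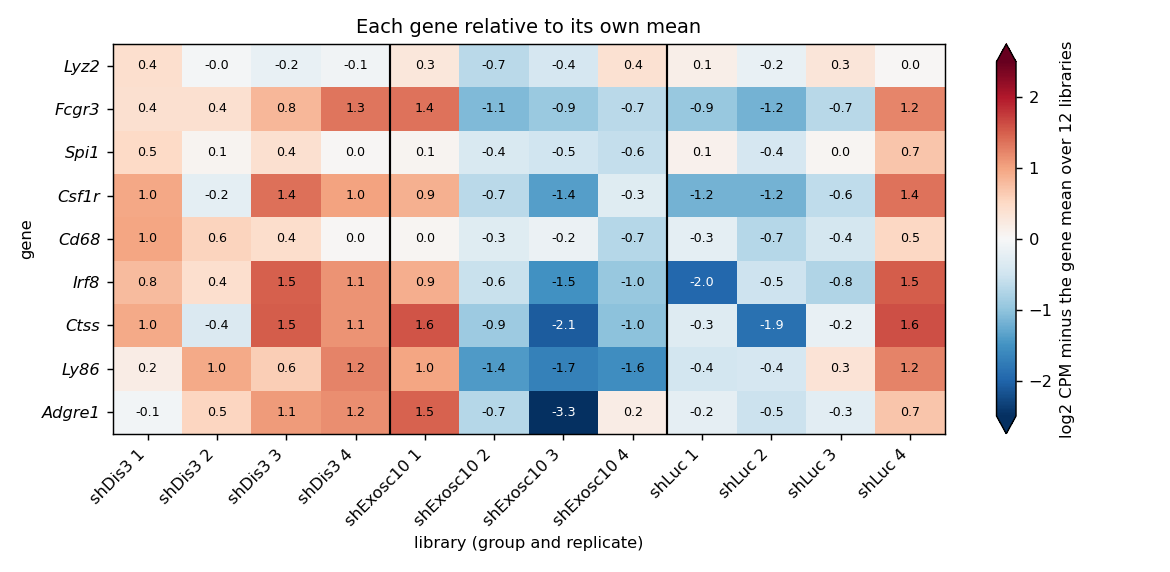
Log2 CPM of each gene minus its own mean over the 12 libraries (colour and printed value), with genes in rows and libraries in columns, shDis3, shExosc10 and shLuc separated by lines. shExosc10 1 and shLuc 4 are above the mean for all 9 genes, unlike the other 3 libraries of their groups, and Lyz2 varies least.

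Particular libraries of each group stood high or low across most of these genes. shExosc10 1 and shLuc 4 each ranked among the 6 highest of the 12 libraries for all 9 genes. The shDis3 libraries did so for 7, 7, 8 and 7 genes, shExosc10 2 to 4 for 0, 0 and 2 genes, and shLuc 1 to 3 for 2, 0 and 3 genes. Measured against the range of the 4 shDis3 libraries, 9 of 9 genes were below it in shExosc10 2, shExosc10 3 and shLuc 2, 7 in shExosc10 4, 6 in shLuc 1 and 5 in shLuc 3, whereas shExosc10 1 and shLuc 4 had none below it and 3 and 4 above it. The shares of all genes with such places were not computed, so these counts do not show whether the 9 genes are unusual. Within the matched pairs, shDis3 3 minus shLuc 4 was between -0.62 (Ly86) and 0.37 (Adgre1) on the log2 scale, with -0.28 for Spi1, -0.39 for Fcgr3, 0.01 for Csf1r and -0.02 for Irf8. The difference of shDis3 4 minus shExosc10 1 was between -0.46 (Ctss) and 0.26 (Ly86), with -0.37 for Lyz2, -0.04 for Spi1, -0.03 for Fcgr3, 0.10 for Csf1r and 0.21 for Irf8.

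Without shDis3 4, shExosc10 1 and shLuc 4, the values were larger and some passed the test. In shDis3 against shLuc, Csf1r (log2 fold change 1.82, adjusted p = 0.0137), Irf8 (1.91, adjusted p = 0.0214) and Fcgr3 (1.49, adjusted p = 9.4e-04) were called higher, 3 of 9 against a background of 2.85% of 19126 genes. Spi1 had 0.40 (adjusted p = 0.349) and Lyz2 -0.01 (adjusted p = 1.0). In shDis3 against shExosc10, Spi1 (0.81, adjusted p = 0.0349), Csf1r (1.57, adjusted p = 0.0356), Irf8 (1.92, adjusted p = 0.0252) and Fcgr3 (1.43, adjusted p = 0.0023) were called higher, 4 of 9 against a background of 2.02%. In shExosc10 against shLuc, 0 of 9 were called against a background of 0.0157%, by edgeR, with 0 of 9 at an unadjusted p under 0.05. Of the 5 other genes in shDis3 against shLuc and shDis3 against shExosc10, Cd68 had 1.13 and 1.03, Ctss 1.52 and 2.14, Ly86 0.73 and 2.13, Adgre1 0.92 and 1.27, and Lyz2 0.24 in the second, with none called. The 3 libraries were taken from an earlier account of these data, which named them as unlike their groups, while 5 other libraries that also matched best outside their group were kept. Removing them favours separated groups, and these calls are no independent evidence of a difference. Without both libraries of each matched pair, shDis3 3 left out too, 2 of 9 were called in shDis3 against shLuc, Csf1r (1.45, adjusted p = 0.0296) and Fcgr3 (1.304, adjusted p = 9.1e-04), against a background of 3.34% of 21703 genes. Under the same setting, which was chosen after seeing the data, 1 of 9 was called in shDis3 against shExosc10, Fcgr3 (1.28, adjusted p = 0.0021), against 2.15%. In shExosc10 against shLuc edgeR called 0 of 9, against 0.0323%, with 1 of 9 at an unadjusted p under 0.05. Without shLuc 4 alone, 0 of 9 genes were called in shDis3 against shLuc by edgeR, against a background of 0.738%, although 4 of 9 had an unadjusted p under 0.05, as did 10.04% of all genes, and the lowest adjusted p among the 9 was 0.0900.

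**Figure D3:**
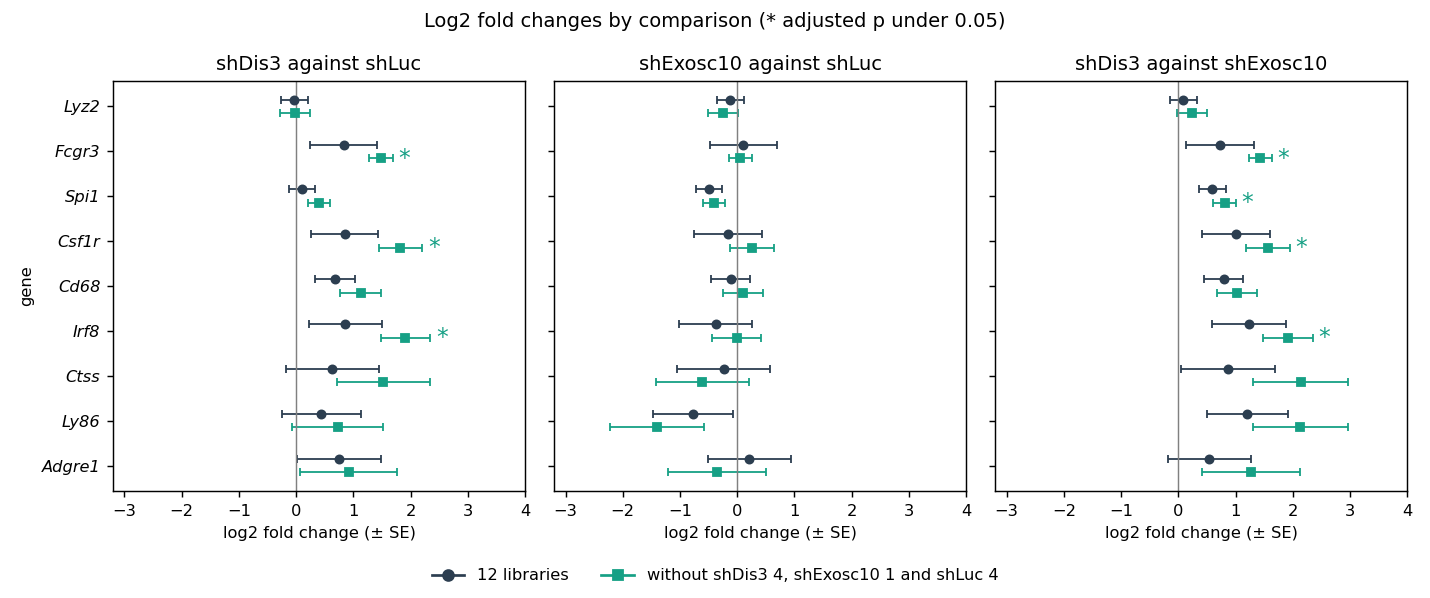
Log2 fold change (horizontal, ± SE) of the 9 genes in shDis3 against shLuc, shExosc10 against shLuc and shDis3 against shExosc10, with all 12 libraries (circles) and without shDis3 4, shExosc10 1 and shLuc 4 (squares); an asterisk marks an adjusted p under 0.05. No circle passed the test, and 3 squares in shDis3 against shLuc and 4 in shDis3 against shExosc10 did.

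The pattern of Spi1 over the libraries was set against that of other genes. Of 7977 genes with a mean of at least 5 TPM, the 5 whose log2 CPM, centred on their own mean, had the smallest root mean square difference from Spi1 over the 12 libraries were Rnpep (0.11), Def8 (0.15), Tbc1d13 (0.15), Sept9 (0.15) and Map3k3 (0.16), where the median gene differed by 0.47. Rnpep, an aminopeptidase, averaged 73.3 ± 12.02 CPM in shDis3, 51.8 ± 12.2 CPM in shExosc10 and 69.8 ± 18.5 CPM in shLuc (SD, n = 4 each). No other member was among these 5. Lyz2 was in place 2756 (0.41), Csf1r in place 7404 (0.75) and Fcgr3 in place 7419 (0.76), and the 5 members under the minimum level had differences of 0.29 (Cd68) to 0.89 (Irf8). The genes were not scaled, so this measure also counts the size of the swings. The SD of log2 CPM was 0.41 for Spi1, 0.33 for Lyz2, 1.04 for Csf1r and 1.02 for Fcgr3. A far place therefore does not show that a gene was high in other libraries than Spi1.

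Transcription factors that work with or against PU.1 in blood cells were taken as a single list, which mixes both roles. In shDis3 against shLuc, 12 of the 23 tested were positive, with a median of 0.01, and 0 were called. The most abundant were the lymphoid and myeloid zinc finger factor Ikzf1 (mean 155 TPM), the progenitor factor Myb (128 TPM) and the erythroid factors Klf1 (87.4 TPM) and Gfi1b (57.7 TPM), with log2 fold changes of -0.29 (SE 0.25), 0.36 (SE 0.32), -0.35 (SE 0.21) and -0.08 (SE 0.21). In shExosc10 against shLuc 4 of 23 were positive (median -0.25), and in shDis3 against shExosc10 18 of 23 (median 0.36). Without the 3 libraries, 7 of 24 were called higher in shDis3 against shLuc, against a background of 2.85%, and 0 lower. Picked out after their values were seen, these were Cebpa, Cebpe, Fli1, Etv6, Gfi1, Egr1 and Meis1, none of them among the 4 above.

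Genes that act beside the receptors, namely adapters, co-receptors, ligands and paralogues, were positive in 14 of 17 in shDis3 against shLuc (median 0.52), 7 of 17 in shExosc10 against shLuc (median -0.09) and 16 of 17 in shDis3 against shExosc10 (median 0.58). None was called. Fcer1g, the signalling chain of Fc gamma receptor III, had a mean of 32.2 TPM and log2 fold changes of 0.69 (SE 0.46) in shDis3 against shLuc and 0.78 (SE 0.46) in shDis3 against shExosc10. The phosphatase gene Ptpn6 had 0.52 (SE 0.36) in shDis3 against shLuc, the cytokine receptor chain Csf2rb -0.05 (SE 0.37) and the inositol phosphatase gene Inpp5d -0.07 (SE 0.22). Without the 3 libraries, 6 of 17 were called higher in shDis3 against shLuc, against a background of 2.85%, with Fcer1g among them (1.24, adjusted p = 0.0019).

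Genes of lysosomal proteases, their inhibitors and lysosome membranes had a median of 0.09 in shDis3 against shLuc with 13 of 19 positive, -0.07 in shExosc10 against shLuc and 0.25 in shDis3 against shExosc10. None was called. Cst3, Lamp1, Ctsd and Laptm5 were the most abundant, at 83.9, 78.7, 69.3 and 62.5 TPM, and had log2 fold changes of 0.29 (SE 0.22), 0.02 (SE 0.15), 0.18 (SE 0.18) and 0.09 (SE 0.27) in shDis3 against shLuc. Even without the 3 libraries, 1 of 19 was called higher, against a background of 2.85%, and 0 lower in that comparison.

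Markers of mature tissue macrophages were scarce. Of 25 genes of resident and island macrophages, 13 passed the filter and 19 averaged under 1 TPM, among them the complement genes C1qa (0.0183 TPM), C1qb (0.152 TPM) and C1qc (0.294 TPM), the scavenger genes Cd5l (0.0550 TPM) and Marco (0.0058 TPM), the adhesion gene Vcam1 (0.268 TPM) and Timd4 (0.0433 TPM). None was listed at 0 in all 12 libraries. The summed level of the list was 32.7 to 70.4 TPM in shDis3, 32.99 to 55.4 TPM in shExosc10 and 24.4 to 74.5 TPM in shLuc. The highest contributions came from Dnase2a (16.8 TPM), Apoe (12.5 TPM) and Slc40a1 (7.28 TPM), none of which is confined to macrophages. In shDis3 against shLuc 9 of 13 were positive with a median of 0.24 and 0 were called, also without the 3 libraries. Slc40a1, the iron exporter ferroportin, was the exception in shDis3 against shExosc10, where it had -0.98 (SE 0.19, adjusted p = 0.584), and -1.001 without the 3 libraries (adjusted p = 0.0137).

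Genes of monocytes and their committed progenitors were more abundant. Of 25 genes, 22 passed the filter, and their summed level was 319 to 482 TPM in shDis3, 186 to 417 TPM in shExosc10 and 101 to 568 TPM in shLuc, where shLuc 1 to 3 reached at most 162 TPM. Plac8 (100 TPM), the coagulation factor gene F13a1 (40.6 TPM), Emb (27.7 TPM) and the monocyte surface antigen gene Ly6c2 (25.4 TPM) led the list. In shDis3 against shLuc their log2 fold changes were 1.05 (SE 0.48), 0.97 (SE 0.40), 0.88 (SE 0.52) and 0.76 (SE 0.39). In all, 18 of 22 genes were positive and the median was 0.68, with 0 called. Without the 3 libraries 9 of 22 were called higher, against a background of 2.85%, and 1 lower. Plac8 (1.703, adjusted p = 4.7e-04), F13a1 (1.44, adjusted p = 6.4e-04) and Emb (1.51, adjusted p = 4.6e-04) were among those higher. The gene called lower, outside the naming rule and picked out after its value was seen, was Lgals3 (galectin 3), at -2.41 (adjusted p = 6.6e-04). With 12 libraries Lgals3 had -2.025 (SE 0.46) and was not called by edgeR (adjusted p = 0.776).

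**Figure D4:**
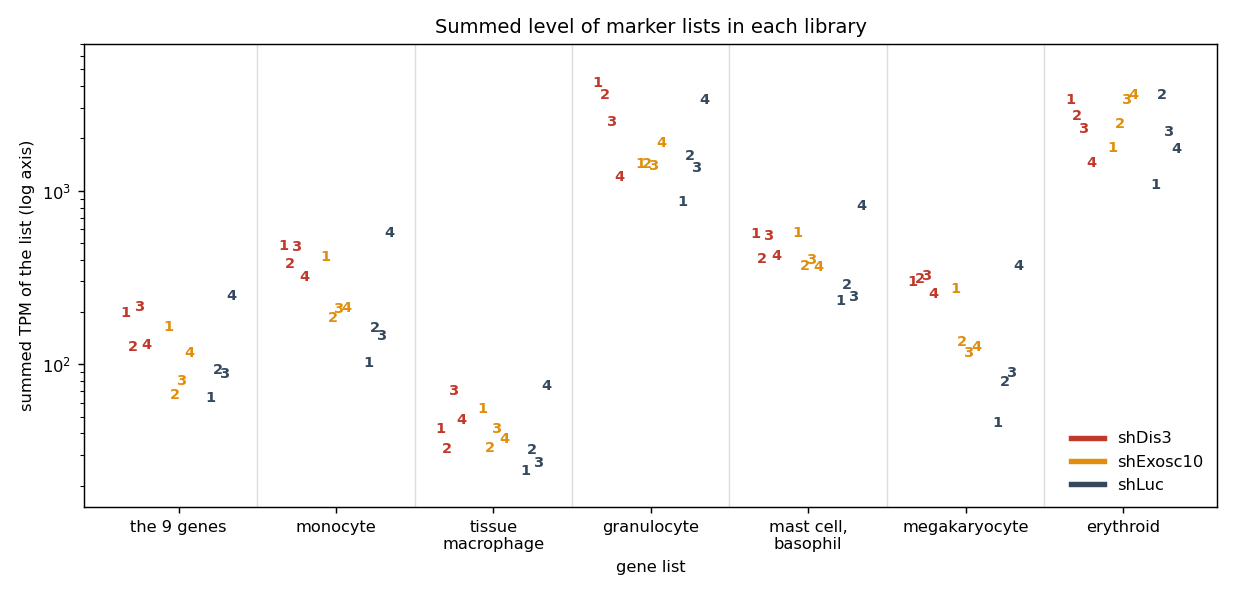
Summed TPM (vertical, log axis) of the 9 genes and of marker lists of 6 cell types in each library; each digit is 1 library, named by its replicate number, in shDis3, shExosc10 and shLuc. shLuc 4 stands above shLuc 1 to 3 in each list plotted but the erythroid one, and shExosc10 1 above shExosc10 2 to 4 in the 9 genes and in the monocyte, tissue macrophage, mast cell and megakaryocyte lists.

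Several other gene lists also had a high summed TPM in shExosc10 1 and shLuc 4. The scale of TPM against CPM differed between libraries, and its part in these sums was not tested. Of 13 lists (markers, partners and lysosomal genes), shExosc10 1 had the highest sum of its group in 7 and the lowest in 4, and shLuc 4 had the highest of its group in 10 and the lowest in 1. The exceptions in shLuc 4 were the dendritic, erythroid and hepatocyte lists. In those lists shExosc10 1 was not the highest of its group either, nor in the neutrophil, lysosomal and PU.1 partner lists. Its sum of PU.1 partner genes, 515 TPM, was the lowest of its group. The 9 genes summed to 126 to 213 TPM in shDis3, 66.3 to 165 TPM in shExosc10 and 64.0 to 246 TPM in shLuc, with shLuc 1 to 3 at 92.3 TPM or less. Megakaryocyte and platelet genes summed to 254 to 324 TPM in shDis3, 116 to 273 TPM in shExosc10 and 45.9 to 366 TPM in shLuc, with shLuc 1 to 3 at 89.6 TPM or less. In shDis3 against shLuc 15 of 16 of them were positive (median 0.84), among them the platelet chemokine gene Pf4 (1.45, SE 0.46) and the integrin genes Itga2b (0.64, SE 0.43) and Itgb3 (1.06, SE 0.62), and Plek had -0.01 (SE 0.35). None was called. Without the 3 libraries, a removal that favours separated groups, 11 of 16 were called higher, against a background of 2.85%. Neutrophil genes, which share Spi1, Lyz2 and Fcgr3 with the monocyte lineage, summed to 1194 to 4190 TPM in shDis3, 1389 to 1879 TPM in shExosc10 and 859 to 3322 TPM in shLuc. Of 18 tested, 14 were positive in shDis3 against shLuc with a median of 0.67, the myeloperoxidase gene Mpo (699 TPM) at 0.82 (SE 0.48) and the elastase gene Elane (189 TPM) at 0.76 (SE 0.37). S100a8 and S100a9 had 0.17 (SE 0.52) and 0.15 (SE 0.53). None was called, and without the 3 libraries 10 of 18 were called higher, against the same background of 2.85%. The erythroid list had 7 of 20 positive (median -0.15) with 0 called. Without the 3 libraries, 3 of 20 were called lower, against 227 of 19126 genes. Tfrc, which encodes the sorted antigen CD71, was among these 3 (-1.33, adjusted p = 0.0018). It was singled out after its value was seen, and was not called with 12 libraries. The part that other cell types played in the levels of the 9 genes was not tested.

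Dendritic cell genes had 7 of 15 past the filter and 11 under 1 TPM, with Tcf4 (9.91 TPM), Zbtb46 (6.23 TPM) and Flt3 (1.93 TPM) at log2 fold changes of 0.23 (SE 0.22), -0.21 (SE 0.27) and 1.16 (SE 0.64) in shDis3 against shLuc. The class II gene H2-Ab1 (10.04 TPM) had -1.69 (SE 0.52, adjusted p = 1.0), and -2.08 without the 3 libraries (adjusted p = 4.2e-04). Mast cell and basophil genes summed to 406 to 560 TPM in shDis3, 362 to 568 TPM in shExosc10 and 231 to 821 TPM in shLuc, with shLuc 1 to 3 at 288 TPM or less. Srgn (288 TPM), Hdc (52.7 TPM), Il1rl1 (35.96 TPM) and Gata2 (29.2 TPM) had log2 fold changes of 0.28 (SE 0.22), 0.35 (SE 0.34), -0.14 (SE 0.27) and -0.52 (SE 0.36) in shDis3 against shLuc. Fcer1a, the defining alpha chain of the IgE receptor, was the only 1 of the 12 listed genes at 0 in all libraries. Others were present, among them Cpa3 at 18.7 TPM and Ms4a2 at 5.90 TPM, and 3 of the 12 averaged under 1 TPM. Cpa3 had 0.49 (SE 1.03) in shDis3 against shLuc. Without the 3 libraries it was the 1 of 9 called higher (1.81, adjusted p = 0.0299, edgeR), against a background of 2.85%. Lymphoid, endothelial and stromal, and hepatocyte genes were low, with 13 of 16, 10 of 12 and 10 of 12 under 1 TPM. None of these lists had a called gene with 12 libraries.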

How the data were processed

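Per the file headers, the authors deposited, for each library, an RSEM expected count per gene (an estimated number of reads, not always whole) together with TPM and an effective length in bases. Named in the submitters' processing notes, without roles, are RSEM 1.3.0, STAR 2.5.3a and GRCm38 (mm10). The sources used here do not give the annotation release, the strand setting or filters. RNA was extracted with Trizol and libraries were made with a stranded total RNA kit for picogram inputs, per the labels' protocols.

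Symbols and coordinates came from GENCODE M21 (GRCm38), which held 54487 of the 55385 identifiers in the same version and 55144 in any version. Before rounding, 4.55% of counts were not whole. Rounded counts were tested with edgeR 4.0.16 (quasi-likelihood, TMM factors, default filter by group) in R 4.3.3, with 12 libraries and group as the only term, and Benjamini-Hochberg adjustment over 17650 genes at 0.05. The test was tested on simulated data. The spread between simulated libraries was set smaller than that of these data, which limits what the simulation shows here. Alternatives used DESeq2 1.42.0, limma 3.58.1 on log2(TPM + 1) and log2(TPM + 0.1), RLE factors, no filter, a replicate block, only the 2 groups compared, fewer libraries and factors for like libraries. No 2 libraries agreed within sampling noise (chi-square per degree of freedom at least 13.1 for any pair).

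The 9 genes and all lists were chosen with earlier results of these data known. All 9 are named. Of each list, up to 4 genes are named, those called first and then the highest by mean TPM. Named besides, after values were seen, are scarce macrophage markers, Fcer1a, Cpa3, Ms4a2, Tfrc, Lgals3 and the PU.1 partner genes called without the 3 libraries. For Spi1, the 5 genes nearest in pattern are named. Promoter and protein sequences were not used here. Counts of overlapping genes and of paralogues depend on how reads were divided. The number of libraries limits the precision, and counts without molecular identifiers cover counting error only.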

Additional observations from a re-analysis of the deposited data

Results flagged for a closer look

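In 6 of the 27 groups of 4 libraries (9 genes in 3 groups), 1 library stood far from its 3 companions, its gap to the nearest of them taking more of the group's range than Dixon's 95% critical value allows. Chance gives this in about 1 in 20 groups, and the genes are not independent of each other. In shExosc10, replicate 1 was the high library for Fcgr3 (87.4 CPM, next 21.4), Ctss (2.96 CPM, next 0.526) and Ly86 (1.71 CPM, next 0.324). In shLuc, replicate 4 was the high library for Fcgr3 (79.0 CPM, next 20.9), Csf1r (18.7 CPM, next 4.70) and Irf8 (10.6 CPM, next 2.59). In shDis3 no library stood apart by this measure for any of the 9 genes.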

How the results depend on the processing

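Of 621 values (9 genes, 3 comparisons, 23 alternatives), 558 kept their direction and their side of the threshold, 10 passed the threshold and 53 changed sign. Members called numbered 0 except without shDis3 4, shExosc10 1 and shLuc 4, where they were 3 in shDis3 against shLuc and 4 in shDis3 against shExosc10, and without these and shDis3 3, where they were 2 and 1. Treating clusters of libraries (r over 0.97) as a factor turned shDis3 against shLuc to -0.21 for Spi1, -0.021 for Csf1r, -0.22 for Irf8, -0.12 for Adgre1, -0.67 for Ly86, -0.33 for Fcgr3 and -0.19 for Ctss, shDis3 against shExosc10 to -0.035 for Lyz2, -0.029 for Csf1r, -0.46 for Adgre1, -0.077 for Ly86, -0.44 for Fcgr3 and -0.58 for Ctss, and shExosc10 against shLuc to 0.0088 for Csf1r and 0.39 for Ctss. This factor puts 3 shDis3 libraries, shExosc10 1 and shLuc 4 in 1 cluster and leaves 5 libraries alone, so few libraries carry its values. Limma on TPM turned Lyz2 in shDis3 against shLuc to 0.19 with either pseudocount, and with 0.1 turned Csf1r to 0.11 and Irf8 to 0.0037 in shExosc10 against shLuc; TPM moved the median of all genes in shDis3 against shLuc to 0.11 and 0.17 on the log2 scale. Otherwise signs turned in shExosc10 against shLuc: to 0.25 for Csf1r, 0.10 for Cd68 and -0.36 for Adgre1 without the 3 libraries, and, with pairs of like libraries (r over 0.98) as a factor, chosen after seeing the data, to 0.18, 0.058 and -0.20 and to -0.020 for Fcgr3. Without both libraries of each pair, Csf1r was 0.23, Cd68 0.069 and Adgre1 -0.40 there, and Lyz2 0.080 in shDis3 against shLuc. With the replicate block, Csf1r was 0.043 and Adgre1 -0.035 in shExosc10 against shLuc, and 0 members were called. Whether the numbers pair the libraries is not labelled. Same-numbered libraries deviated together at r = -0.47 to 0.77, and differently numbered ones were not compared in this way. Leaving out 1 library at a time, the log2 fold change ranged, in shDis3 against shLuc, from -0.041 to 0.33 for Spi1, -0.19 to 0.053 for Lyz2, 0.60 to 1.86 for Csf1r, 0.55 to 1.96 for Irf8, 0.59 to 1.73 for Fcgr3, 0.31 to 1.58 for Ctss and 0.25 to 0.92 for Ly86. In shExosc10 against shLuc it ranged from -0.28 to 0.049 for Lyz2, -0.76 to 0.86 for Csf1r, -0.24 to 0.20 for Cd68, -1.10 to 0.73 for Irf8, -0.70 to 0.62 for Adgre1, -0.84 to 1.01 for Fcgr3 and -1.56 to 0.73 for Ctss. In shDis3 against shExosc10 it ranged from -0.084 to 0.25 for Lyz2, 0.74 to 1.62 for Csf1r, 0.96 to 1.97 for Irf8, 0.46 to 1.68 for Fcgr3, 0.52 to 2.21 for Ctss, 0.93 to 2.33 for Ly86 and 0.14 to 1.46 for Adgre1. The extremes for Csf1r, Irf8, Fcgr3 and Ctss in shExosc10 against shLuc came without shExosc10 1 (lowest) and without shLuc 4 (highest). For Csf1r, Irf8, Fcgr3, Ctss and Ly86 the highest value in shDis3 against shLuc came without shLuc 4, and in shDis3 against shExosc10, as for Adgre1, without shExosc10 1. The causes of these shifts were not tested. Adgre1, Ly86 and Ctss rest on 3 to 98 counts per library, which limits their precision.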
